A study of Homo sapiens with 4 samples.

Results

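The cadherins and protocadherins of 2 related breast cancer cell lines were described from their gene expression levels. The members were all genes of the table whose symbol is CDH or PCDH followed by a number, together with the alpha, beta and gamma protocadherin clusters, without symbols that mark pseudogenes and without PCDH11Y. This gave 89 of the 57815 genes listed. The RNA-Seq covered MDA-MB-231, an established human line of triple-negative breast cancer (called the parental cells below), and LM2-4175, a line derived from it that spreads to the lung in particular. Both were untreated human lines grown in the same medium, with 2 libraries each and 4 in all, and the labels do not say whether the libraries of a line came from separate cultures. The authors combined the libraries of a line in 1 FPKM value per gene (fragments mapped, per kilobase of transcript and relative to the library's fragments) with a lower and an upper bound, so none of the differences below has a replicate check and no p-value was computed. The number of fragments behind a value is not known from the table, and the bounds were taken as the measure of precision.

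Classical cadherins are transmembrane proteins that bind cadherins on the neighbouring cell in the presence of calcium. Their cytoplasmic tails hold catenins, which couple the contact to the actin skeleton. Protocadherins have the same kind of extracellular repeats but do not bind these catenins, and many of them are best known from neurons. The clustered protocadherin genes lie next to each other on chromosome 5. In the alpha and gamma clusters, each variable first exon has its own promoter and is spliced to constant exons that the whole cluster shares, whereas the beta genes are made of a single coding exon. Their promoters carry a conserved element that the DNA-binding protein CTCF occupies.

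The promoters are shown first, because most of the beta genes described below share a run of letters there. RefSeq promoters on GRCh38.p14, each with 250 bases before and 50 bases after the annotated start, were found for 67 members. In each cluster, the run of 10 letters held by the largest number of its genes was taken and searched on both strands of all promoters. In the beta cluster this run was GGTGGCGCTG, held by 12 of 14 genes and by 0.276% of the 35116 promoters of all genes. PCDHB1 and PCDHB14 did not hold these letters, and PCDHB6, PCDHB11, PCDHB17 and PCDHB18 had no entry. The following windows of 40 bases are given 5′ to 3′ on the plus strand, with the shared letters in capitals, so that the alignment of the beta promoters can be seen.
PCDHB2 (chr5:141094540-141094579): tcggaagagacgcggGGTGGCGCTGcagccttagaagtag
PCDHB3 (chr5:141100389-141100428): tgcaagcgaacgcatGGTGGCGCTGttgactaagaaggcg
PCDHB4 (chr5:141121719-141121758): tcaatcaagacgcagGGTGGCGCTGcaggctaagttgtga
PCDHB5 (chr5:141135175-141135214): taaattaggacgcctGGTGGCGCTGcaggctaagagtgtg
PCDHB7 (chr5:141172562-141172601): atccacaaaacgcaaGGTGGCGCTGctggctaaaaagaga
PCDHB8 (chr5:141177773-141177812): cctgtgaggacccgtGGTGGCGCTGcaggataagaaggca
PCDHB16 (chr5:141182306-141182345): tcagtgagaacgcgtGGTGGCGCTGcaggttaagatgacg
PCDHB9 (chr5:141187070-141187109): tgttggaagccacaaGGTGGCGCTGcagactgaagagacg
PCDHB10 (chr5:141192295-141192334): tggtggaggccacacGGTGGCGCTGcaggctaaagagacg
PCDHB12 (chr5:141208639-141208678): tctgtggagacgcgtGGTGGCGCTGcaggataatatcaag
PCDHB13 (chr5:141213861-141213900): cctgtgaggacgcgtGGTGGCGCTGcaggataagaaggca
PCDHB15 (chr5:141245310-141245349): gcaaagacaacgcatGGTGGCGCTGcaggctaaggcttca

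The capitals began between -84 bases (PCDHB4) and -2 bases (PCDHB8) from the annotated start, counted as 0. The alpha promoters shared other letters, ATGATGTCGC, in 8 of 13 genes and in 0.0313% of all promoters. The gamma promoters shared GCGCCGCTGT in 8 of 19 genes and in 0.131% of all promoters. A promoter of each is shown for comparison with the beta windows.
PCDHA1 (chr5:140786080-140786119): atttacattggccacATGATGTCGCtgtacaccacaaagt
PCDHGB1 (chr5:141350022-141350061): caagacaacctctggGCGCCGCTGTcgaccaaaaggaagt

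None of the 3 runs occurred in the promoters of another cluster, and of the 21 members outside the clusters that had a promoter 1 held the gamma run. As the runs were chosen in these promoters, the counts are a description, and a match is not evidence that CTCF was bound in these cells.

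The type II cadherin CDH11 was the highest member in the parental cells, and it was far lower in LM2-4175. CDH11, also called OB-cadherin, is a cadherin of mesenchymal cells and osteoblasts (ENSG00000140937, chromosome 16 of GRCh37, 64977656 to 65160015, minus strand). The parental cells had 35.1 FPKM (bounds of 20.5 to 49.7), whereas LM2-4175 had 6.14 FPKM (3.26 to 9.02). The level in the parental cells was 5.72 times that in LM2-4175, and the bounds were well apart. On the scale of log2(FPKM + 1), on which all differences below are given and which understates the change of low genes, CDH11 differed by -2.34. Within 3 Mb of CDH11, 44 protein-coding genes that are no members passed the filter given below and had a median difference of -0.05. Of these, 18 had a difference above 0 and 26 below 0, and by the rule given below 1 was called higher and 1 lower.

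The type I cadherin CDH4, or R-cadherin, first known from the retina, took the first place in LM2-4175. CDH4 lies on the plus strand of chromosome 20 (59827317 to 60515673) and had 22.3 FPKM (16.6 to 28.0) in the parental cells and 34.5 FPKM (26.1 to 43.0) in LM2-4175. The ratio was 1.55 and the difference 0.61, but the bounds overlapped, so whether the levels differ is not settled. Within the parental cells, CDH11 was 1.57 times as high as CDH4 with overlapping bounds, so the order of these genes is not settled there. Within LM2-4175, CDH4 was 5.63 times as high as CDH11 with bounds apart. The sum of both genes was 57.4 FPKM in the parental cells and 40.7 FPKM in LM2-4175.

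CDH24, a broadly expressed type II cadherin, followed CDH11 and CDH4 in the parental cells and CDH4 in LM2-4175, with nearly equal levels. It had 6.60 FPKM (4.79 to 8.40) in the parental cells and 6.75 FPKM (4.88 to 8.61) in LM2-4175, a difference of 0.03. In LM2-4175 its bounds overlapped those of CDH11. CDH11, CDH4 and CDH24 together held 71.1% of the summed FPKM of all members in the parental cells and 64.3% in LM2-4175. The share of CDH11 was 39.0% in the parental cells and 8.32% in LM2-4175, and that of CDH4 was 24.8% and 46.8%. The plot of levels shows CDH4 in both lines and CDH11 in the parental cells with bounds above those of all further members, whereas the bounds of CDH24 overlapped those of the next member, PCDHGB2, in both lines.

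**Figure D1:**
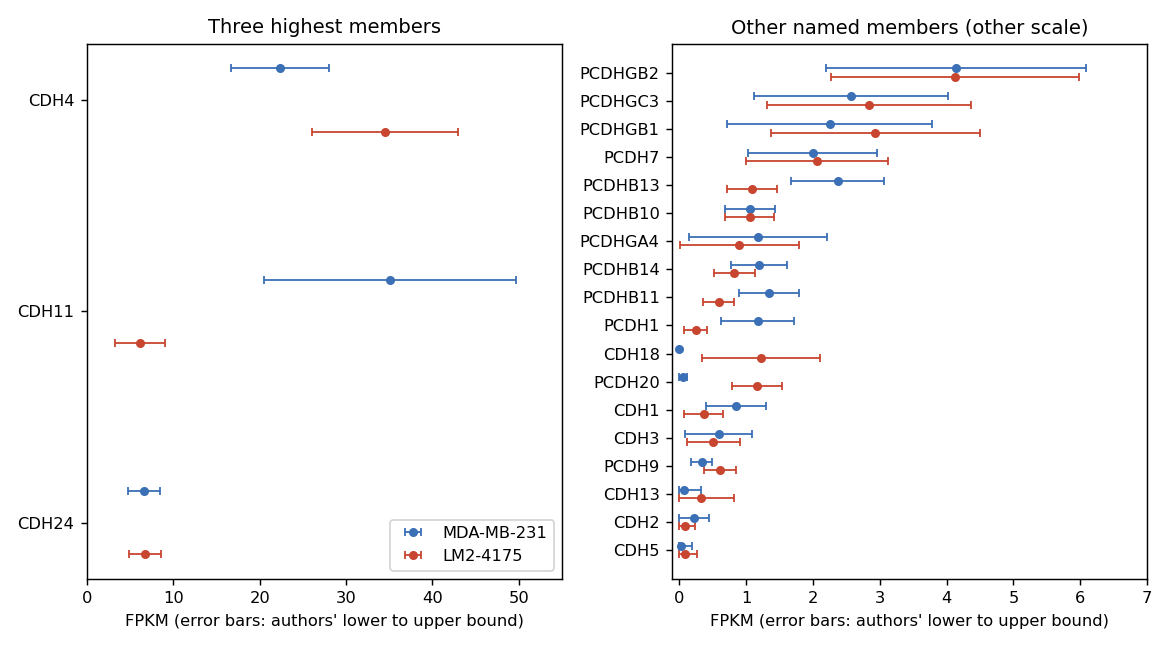
FPKM of the 3 highest members (left) and of the other named members (right, on another scale) in MDA-MB-231 (blue) and LM2-4175 (red), with points for the authors' value and error bars from their lower to their upper bound. CDH11 went from 35.1 to 6.14 FPKM with bounds apart, the bounds of CDH4 overlapped, and most members on the right lay under 3 FPKM.

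Calls of higher or lower genes in LM2-4175 required 3 things, a mean of 0.5 FPKM or more over the lines, a change of FPKM + 1 of 1.5-fold or more, and bounds that lay apart. Such a call compares the pooled libraries and not replicates. Of all 13911 genes that passed the filter, 9.27% were called, with 4.67% higher and 4.61% lower. Of the members, 18 passed the filter and 71 did not, 16 of which were listed at 0 in both lines. Among the 18, CDH18 and PCDH20 were called higher, and CDH11, PCDH1 and PCDHB13 were called lower. For 3 of these 5 genes (CDH18, PCDH20 and PCDH1) the level in the lower cell line was under 0.5 FPKM, so they passed the filter through the other line. Genes that pass in this way are picked in part for differing, so the count over the members that passed is no support. Without the filter, 5 of 89 members (5.62%) were called, against 2.35% of all genes. The sets behind these shares are not alike, as 53.9% of all genes were listed at 0 in both lines, against 16 of the 89 members. The part of this in the shares was not tested. By the bounds alone, PCDHB11 was added, against 9.39% of all genes, and by the fold alone CDH4, against 22.1%. Of the 71 members that did not pass the filter, PCDHB4 and PCDHB12 (2.82%) had bounds apart, against 0.444% of all genes that did not pass, of which 71.0% were listed at 0 in both lines. The median difference of the 18 members was -0.0042, against -0.04 for all genes tested. At a mean of at least 1 FPKM, CDH11 and PCDHB13 were the members called, and with a fold threshold of 2 the called members were CDH11, CDH18 and PCDH20.

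**Figure D2:**
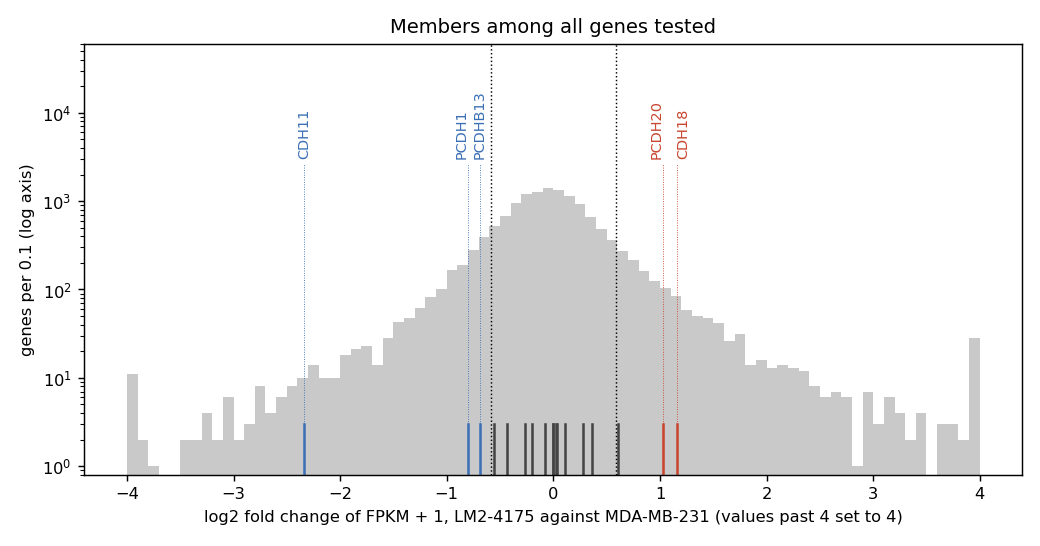
Number of genes tested (grey, log axis) by log2 fold change of FPKM + 1 in LM2-4175 against MDA-MB-231, with 1 tick for each of the 18 members tested (red called higher, blue called lower, dark grey not called) and dotted lines at a fold of 1.5. CDH11 at -2.34 lies farthest from 0 of the members, PCDH20 at 1.03 and CDH18 at 1.16 (against a listed 0, a place that rests on the pseudocount) lie on the other side, and 13 members were not called.

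CDH1 and CDH2, the E-cadherin of epithelia and the N-cadherin of mesenchymal and neural cells, were both low in both cell lines. CDH1 lies on the plus strand of chromosome 16 (68771195 to 68869440) and had 0.851 FPKM (0.403 to 1.30) in the parental cells and 0.366 FPKM (0.0734 to 0.658) in LM2-4175. CDH2 (chromosome 18) had 0.221 FPKM (0 to 0.444) and 0.0839 FPKM (0 to 0.235). Both values were lower in LM2-4175 with overlapping bounds, and neither gene was called. CDH3, the P-cadherin of basal epithelial cells and the neighbour of CDH1 on chromosome 16 (68670092 to 68761371), had 0.591 FPKM (0.0849 to 1.10) and 0.512 FPKM (0.118 to 0.906). CDH15, the M-cadherin of muscle, did not pass the filter, at 0.0506 and 0.10 FPKM.

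CDH1 was not called, although its value in the parental cells was 2.33 times that in LM2-4175. Its difference was -0.44, or -1.03 with a pseudocount of 0.1, with overlapping bounds. Of the markers of this cell type, 2 of 5 tested that were expected present and 2 of 4 tested that were expected low were called. This compares with 9.27% of all genes. The epithelial keratins KRT8 and KRT18 were called lower in LM2-4175, and the ratio of KRT18 was 2.48. KRT8 went from 626 to 180 FPKM and KRT18 from 448 to 181 FPKM. EPCAM, an adhesion protein of epithelia, was called lower from 12.3 to 4.93 FPKM and the tight junction gene CLDN4 from 69.2 to 2.63 FPKM. Its relative CLDN7 had a higher value in LM2-4175, 19.4 against 28.0 FPKM, with overlapping bounds. CLDN3 did not pass the filter, at 0.474 FPKM (0.205 to 0.743) and 0.0614 FPKM (0 to 0.138), although its bounds lay apart. VIM, the mesenchymal intermediate filament, had 1355 FPKM in the parental cells and 1768 FPKM in LM2-4175 and was not called. From the same marker list, CD44 went the other way, with 470 FPKM in the parental cells and 355 FPKM in LM2-4175. EGFR had 41.4 and 54.3 FPKM, and neither CD44 nor EGFR was called. ESR1 and PGR, whose absence defines the triple-negative type together with low ERBB2, were under 0.1 FPKM in both lines, while ERBB2, which the label would put low, had 35.0 and 22.8 FPKM. The part of these genes in the values of CDH1 was not tested.

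Of the 13 type II cadherins, 3 passed the filter: CDH11, CDH24 and CDH18. CDH18, a type II cadherin known mainly from the nervous system (chromosome 5, 19471405 to 20575982, minus strand), was listed at 0 in the parental cells and had 1.23 FPKM (0.349 to 2.11) in LM2-4175. An exact 0 in this table can be a failed estimate, although the authors' status of CDH18 was OK in both lines. Its bounds in the parental cells were also listed at 0, so no fold is given. Its difference of 1.16 on the log2(FPKM + 1) scale rests on the pseudocount and is no bound. Of the 1290 calls over all genes, 35 rest on such a 0. The 3 protein-coding genes tested within 3 Mb of CDH18, FAM134B, MYO10 and BASP1, had a median difference of 0.01 and none was called. The other type II cadherins on this arm of chromosome 5 were at 0.0554 and 0.0661 FPKM (CDH12), 0 and 0.0237 FPKM (CDH10), 0.00142 and 0.00391 FPKM (CDH6), and 0 in both lines (CDH9).

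CDH5, the VE-cadherin of endothelium, was at 0.0348 FPKM (0 to 0.194) in the parental cells and 0.0857 FPKM (0 to 0.261) in LM2-4175, and the endothelial gene VWF at 0.0117 and 0.0618 FPKM. CDH7 and CDH19 were listed at 0 in both lines, and CDH8, CDH20 and CDH22 did not exceed 0.1 FPKM.

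Marker genes of fibroblasts were read beside these values. Of the 3 fibroblast genes, DCN did not pass the filter, and the 2 others, PDGFRB and LUM, were called lower in LM2-4175. Of all genes tested, 4.61% were called lower. LUM was under 0.5 FPKM in LM2-4175 and passed the filter through the parental cells, and 2 genes are too few to read more from. PDGFRB, the receptor for platelet-derived growth factor, went from 9.44 to 1.91 FPKM, and LUM, a matrix proteoglycan, from 1.34 to 0.178 FPKM. The summed level of the 3 genes was 10.9 FPKM in the parental cells and 2.12 FPKM in LM2-4175, with no gene at 0. Their part in the value of CDH11 was not tested.

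The 5 cadherins of other kinds did not pass the filter, and the highest value among them was 0.331 FPKM. CDH13, a cadherin held in the membrane by a lipid anchor, had 0.0676 FPKM (0 to 0.322) in the parental cells and 0.331 FPKM (0 to 0.816) in LM2-4175, which is 4.90 times as high, with overlapping bounds that both reach 0. CDH17 of intestinal epithelium had 0.162 and 0.101 FPKM. CDH16 of kidney was listed at 0 in the parental cells and at 0.0255 FPKM in LM2-4175, and CDH26 and CDH23 stayed under 0.04 FPKM. CDH23 forms the tip links of hair cells with PCDH15. PCDH15 had 0.0103 FPKM (0 to 0.126) and 0.312 FPKM (0 to 0.751), again with overlapping bounds.

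Outside the clusters, 3 of 11 protocadherins passed the filter, of which PCDH1 was called lower, PCDH20 was called higher and PCDH7 was not called. PCDH1, a protocadherin found in airway epithelium (chromosome 5, 141232655 to 141258811, minus strand), had 1.18 FPKM (0.633 to 1.72) in the parental cells and 0.250 FPKM (0.0750 to 0.425) in LM2-4175. It was called lower with a difference of -0.80, and its level in the parental cells was 4.70 times that in LM2-4175. No other gene overlaps its exons. Of 46 protein-coding genes within 3 Mb that are no members and passed the filter, 3 were called higher and 0 lower. The member PCDHB13, also within 3 Mb, was called lower.

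On the scale of log2(FPKM + 1), though not by ratio, PCDH20 differed most among the protocadherins. It had 0.0585 FPKM (0 to 0.120) in the parental cells and reached 1.16 FPKM (0.789 to 1.53) in LM2-4175, which is 19.9 times as high and a difference of 1.03. The lower bound in the parental cells was 0, so the size of the ratio is uncertain. The genes tested within 3 Mb, DIAPH3 and TDRD3, had a median difference of -0.22 and were not called. In the authors' annotation the gene spans chromosome 13 from 61983818 to 62002220, and a later annotation gives this identifier (ENSG00000197991) to a readthrough locus that covers both PCDH20 and a lncRNA gene. There, 74.8% of its windows of read length also belong to another gene. The windows were not computed on the authors' annotation, and the share of PCDH20 itself in the value was not tested.

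PCDH7 had the highest level of the protocadherins outside the clusters and hardly differed, with 2.00 FPKM (1.03 to 2.96) in the parental cells and 2.06 FPKM (0.999 to 3.13) in LM2-4175. PCDH9, on chromosome 13 like PCDH20, had 0.336 FPKM (0.175 to 0.498) and 0.607 FPKM (0.366 to 0.847) and did not pass the filter. PCDH18 had 0.302 and 0.212 FPKM with overlapping bounds. PCDH12, of endothelium, had 0.0723 and 0.414 FPKM with an upper bound of 1.72 FPKM in LM2-4175. PCDH10, PCDH17 and PCDH19 stayed under 0.1 FPKM in both lines and PCDH8 was listed at 0 in both.

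The beta cluster held levels of up to 2.37 FPKM, and its values are described in the order of its genes. The genes from PCDHB11 to the end of the cluster all had lower values in LM2-4175, with bounds apart for 3 of them, while the genes before it had values in both directions, with bounds apart for PCDHB4 alone. The border at PCDHB11 was chosen after the values were seen, so the counts that follow are a description. All 6 members from PCDHB11 on had a lower value in LM2-4175, by factors of 1.45 to 4.69. They include PCDHB18, whose lower bound was 0 in both lines. Of the 12 members before PCDHB11, 8 had a higher and 3 a lower value, and PCDHB1 was listed at 0 in both lines. Of all genes tested, 54.5% had a lower value in LM2-4175. Bounds lay apart for 9.39% of all genes tested and for 0.444% of the genes that did not pass the filter. The summed level from PCDHB11 on was 5.50 FPKM in the parental cells and 2.67 FPKM in LM2-4175, and that of the genes before was 2.35 and 3.25 FPKM. The sum over the whole cluster was 7.86 and 5.93 FPKM, in which the genes from PCDHB11 on held 70.1% in the parental cells and 45.1% in LM2-4175.

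PCDHB13, which carries the promoter run in capitals above, had the highest value of the cluster in both lines and was its called gene, though its bounds overlapped those of PCDHB10 in LM2-4175. Its level (chromosome 5 of GRCh37, 140593491 to 140598551, plus strand) was 2.37 FPKM (1.67 to 3.07) in the parental cells and 1.09 FPKM (0.716 to 1.46) in LM2-4175, a difference of -0.69. PCDHB11 had 1.34 FPKM (0.899 to 1.79) and 0.592 FPKM (0.355 to 0.828). Its bounds did not overlap, but its difference of -0.56 was just short of 1.5-fold on the scale of FPKM + 1, and it was called lower with a pseudocount of 0.1 and after scaling to TPM (FPKM rescaled to the same sum in both lines). Between them, PCDHB12 fell outside the filter with 0.404 FPKM (0.228 to 0.580) and 0.0863 FPKM (0.0218 to 0.151), bounds that also did not overlap.

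PCDHB14, which lacks the run in its promoter, had 1.20 FPKM (0.778 to 1.62) and 0.829 FPKM (0.516 to 1.14), and PCDHB15 had 0.155 FPKM (0.0585 to 0.252) and 0.0604 FPKM (0.00624 to 0.115). The bounds of both genes overlapped. PCDHB18, which the later annotation calls a pseudogene, was at 0.0327 and 0.0156 FPKM.

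Before PCDHB11, the gene next to it had nearly equal levels, and no gene was called. PCDHB10 had 1.06 FPKM (0.692 to 1.43) in the parental cells and 1.05 FPKM (0.686 to 1.42) in LM2-4175. PCDHB9 had 0.366 FPKM (0.212 to 0.519) and 0.756 FPKM (0.489 to 1.02), a ratio of 2.07 whose bounds overlapped slightly. PCDHB4 had 0.0133 FPKM (0 to 0.0335) and 0.163 FPKM (0.0732 to 0.252), and although its bounds did not overlap, it did not pass the filter. PCDHB2, PCDHB8 and PCDHB16 had values of 0.251 to 0.288 FPKM in the parental cells and 0.360 to 0.394 FPKM in LM2-4175, each with overlapping bounds. PCDHB3, PCDHB5, PCDHB6 and PCDHB17 stayed under 0.05 FPKM, and PCDHB7 had 0.0451 and 0.106 FPKM. Within 3 Mb of PCDHB13, 53 protein-coding genes that are no members passed the filter and had a median difference of 0.02, with 4 called higher and 0 lower.

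**Figure D3:**
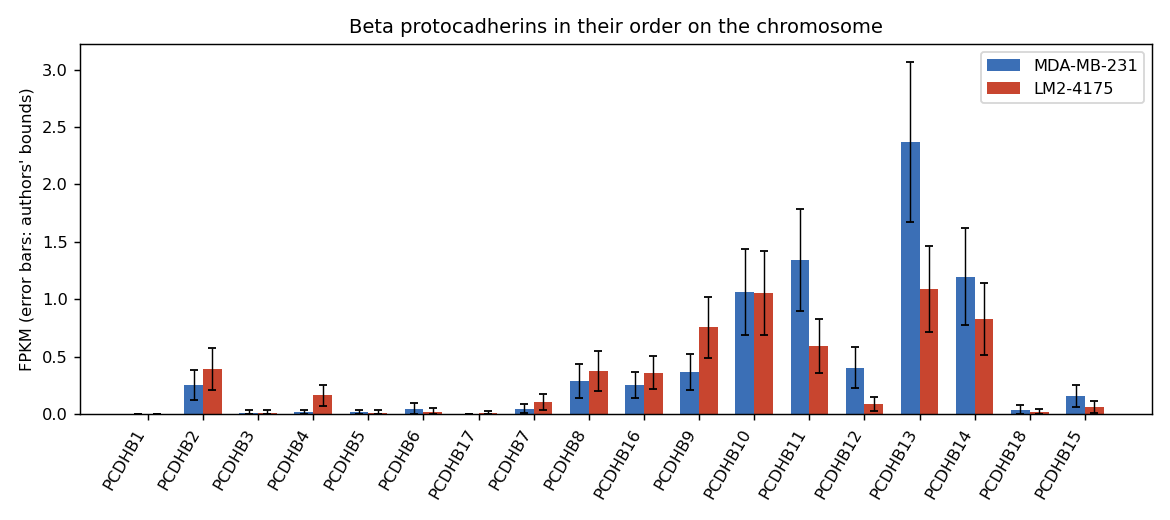
FPKM of the 18 beta protocadherins in their order on the chromosome in MDA-MB-231 (blue bars) and LM2-4175 (red bars), with error bars from the authors' lower to their upper bound. The 6 genes from PCDHB11 on have lower values in LM2-4175, with bounds apart for PCDHB11, PCDHB12 and PCDHB13, and of the 12 genes before them PCDHB4 alone has bounds apart.

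In the gamma cluster, the bounds of every member overlapped between the lines. Of its 21 members, 4 passed the filter and none of them was called. PCDHGB2 was the highest with 4.14 FPKM (2.19 to 6.09) in the parental cells and 4.13 FPKM (2.28 to 5.99) in LM2-4175. PCDHGC3 had 2.57 FPKM (1.12 to 4.02) and 2.84 FPKM (1.32 to 4.37), and PCDHGB1 had 2.25 FPKM (0.714 to 3.79) and 2.94 FPKM (1.37 to 4.50). PCDHGA4 had 1.18 FPKM (0.147 to 2.22) and 0.902 FPKM (0.0137 to 1.79). The summed level of the cluster was 11.9 FPKM in the parental cells and 12.2 FPKM in LM2-4175.

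The alpha cluster was near 0 in both lines. None of its 16 members passed the filter, 7 were listed at 0 in both lines, and the highest value was 0.0550 FPKM, of PCDHAC1 in LM2-4175. The summed level was 0.0213 FPKM in the parental cells and 0.118 FPKM in LM2-4175.

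How far a value belongs to a single gene differed between the classes. In the gamma cluster, 27.0% to 66.5% of the exonic windows of 150 bases, the read length, also occurred in another gene, with a median of 41.6%. In the alpha cluster the median was 47.5%. In the beta cluster, which has no constant exons, the median was 4.67%, with 10.5% for PCDHB13, 4.97% for PCDHB11 and 2.56% for PCDHB12, and 100% for the pseudogenes PCDHB17 and PCDHB18. CDH4 and CDH24 shared none, and CDH11 shared 0.793%. The division of fragments between genes of the alpha or of the gamma cluster is therefore uncertain, also where bounds are narrow. Only exact matches were counted.

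**Figure D4:**
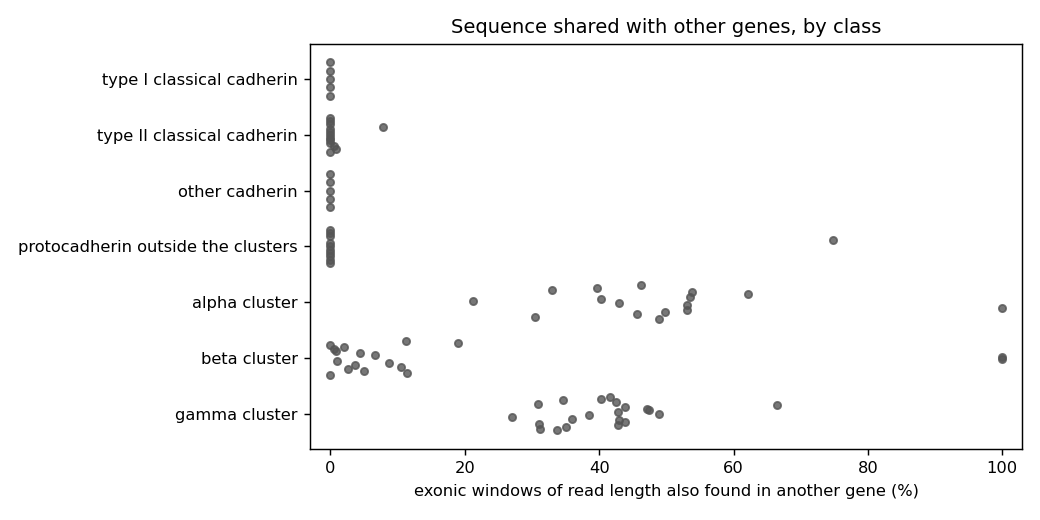
Share of the exonic windows of read length of each member that also occur in a transcript of another gene (x axis, %), by class (y axis, 1 point per member). The alpha cluster has a median of 47.5% and the gamma cluster of 41.6%, the beta cluster has a median of 4.67%, and the cadherins lie near 0. The protocadherin at 74.8% is PCDH20, whose identifier the later annotation gives to a readthrough locus.

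Of 24 catenins and other partners, 20 passed the filter, 0 were called higher and 2 were called lower, and their median difference was -0.14. These 2 genes are 10.0% of those tested, near the 9.27% of all genes. CTNNA1, the alpha-catenin that binds actin, had 231 FPKM (163 to 299) in the parental cells and 237 FPKM (159 to 314) in LM2-4175. CTNNB1, the beta-catenin that binds the cadherin tail, had 148 FPKM (112 to 183) and 163 FPKM (123 to 203). VCL, the vinculin that strengthens the contact, had 119 and 147 FPKM, and IQGAP1, a scaffold of the actin skeleton, had 141 FPKM (65.7 to 217) and 254 FPKM (112 to 397). None of these 4 genes was called, and the bounds of each overlapped.

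The genes called lower were ADAM10 and CTNNAL1. ADAM10, a protease that sheds the extracellular part of cadherins, had 79.4 FPKM (57.9 to 101) in the parental cells and 37.7 FPKM (27.4 to 48.0) in LM2-4175, a difference of -1.06. CTNNAL1, a relative of alpha-catenin, had 237 FPKM (181 to 293) and 128 FPKM (97.8 to 158), a difference of -0.88. The plot of the partners shows these as the pairs that do not overlap.

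**Figure D5:**
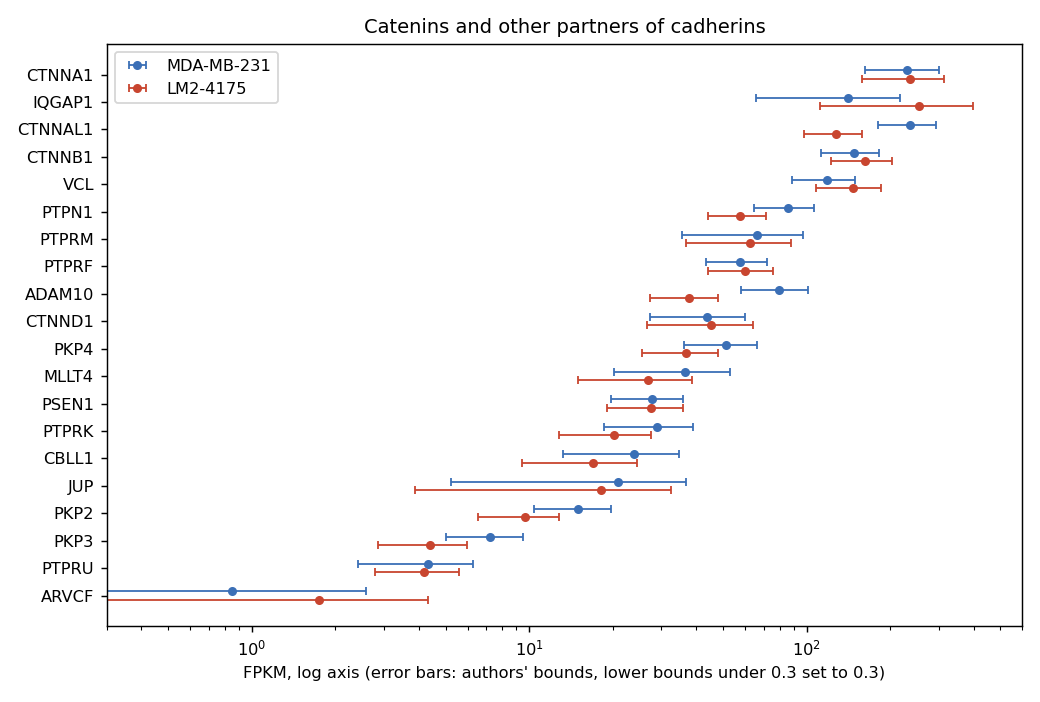
FPKM (log axis) of the 20 catenins and other cadherin partners tested, in MDA-MB-231 (blue) and LM2-4175 (red), with error bars from the authors' lower to their upper bound, in the order of their summed level. ADAM10 and CTNNAL1 are lower in LM2-4175 with bounds apart, and the bounds of the others overlap.

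Of 26 cadherin superfamily genes that the rule leaves out, 11 passed the filter, with 2 called higher and 1 lower. These are 27.3% of those tested, against 9.27% of all genes, and 3 genes are too few to read more from. CELSR1, a receptor of planar cell polarity, went from 3.04 FPKM (1.75 to 4.33) to 8.33 FPKM (5.21 to 11.5), and DSC2, a cadherin of desmosomes, from 1.33 FPKM (0.921 to 1.74) to 2.70 FPKM (1.95 to 3.44). FAT4, a giant cadherin of planar cell polarity, was lower, from 4.23 FPKM (3.22 to 5.24) to 2.47 FPKM (1.86 to 3.09), and was not called after conversion to TPM, which left 2 higher and 0 lower. CLSTN1, FAT1, DSG2 and CLSTN3 were expressed at a mean of over 5 FPKM and not called. FAT1 had 42.4 FPKM (23.3 to 61.4) and 73.1 FPKM (42.6 to 104), and the desmosomal DSG2 had 36.0 and 37.8 FPKM.

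Of 10 genes known to act at the promoters of clustered protocadherins, DNMT3B was called higher in LM2-4175 and none lower, which is 10% of the list, near the 9.27% of all genes. DNMT3B, a DNA methyltransferase, went from 3.42 FPKM (2.37 to 4.47) to 7.25 FPKM (5.16 to 9.33). CTCF, which occupies the promoter element, had 19.5 FPKM in the parental cells and differed by -0.04, with overlapping bounds. The cohesin genes RAD21, SMC1A and SMC3 had 161, 116 and 71.3 FPKM in the parental cells and 129, 119 and 65.5 FPKM in LM2-4175, with overlapping bounds.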

How the data were processed

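Total RNA of both cell lines was sequenced by the authors as paired reads, aligned to hg19 with TopHat 2 and quantified on GENCODE 19 genes with Cufflinks and Cuffdiff. The authors deposited 1 pooled FPKM for every gene in each line, its bounds and a status. The normalization of library sizes and what spread the bounds hold are not given in the sources used here. Limma on single libraries, as first designed, could not be run on pooled values, and calls from bounds and fold took its place, with a pseudocount of 1 FPKM, a mean of at least 0.5 FPKM and a status of OK. Members and lists were chosen with earlier results of these data known. Named are the members called, those of at least 1 FPKM in either line, 9 fixed members, and of each list the genes called and the highest. CTCF and the low members beyond these were added after their values were seen. Positions, exon overlaps and windows of 150 bases were taken from GENCODE 44 on GRCh37, matched by gene ID for 88 members and by symbol for 1. Alternatives were a pseudocount of 0.1, other filters, a fold of 2, fold or bounds alone, and TPM. The values of 1 marker list are not reported here. Calls were tested on simulated data. Python 3.11.15, NumPy 2.4.6, pandas 2.3.3 and Matplotlib 3.10.9 were used.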

Additional observations from a re-analysis of the deposited data

How the results depend on the processing

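The precision of every value rests on the authors' bounds of 1 pooled value per cell line, and levels under 0.5 FPKM mostly have bounds too wide to compare. Leaving out a library was not run, because the table holds no column per library. No paired analysis was possible because the columns carry no replicate number. Of the recomputed counts, 30 stayed within 1.5 times the value reported and 13 did not. With a fold threshold of 2, the calls were 853 of all genes, 3 members, 0 clustered protocadherins, 1 partner, 1 other cadherin superfamily gene and 0 cluster regulators. With the fold alone, they were 3074 of all genes, 5 partners and 7 other superfamily genes. At a mean of at least 1 FPKM, 2 members were called. The clustered protocadherins called were 2 in place of 1 with a pseudocount of 0.1, with TPM and with the bounds alone, and the alternatives for the clusters and regulators were chosen after the data were seen. The log2 differences of PCDHB10 and PCDHGB2, both about 0, turned from below 0 to 0.0447 and 0.0679 with TPM. TPM moved the median of all genes by 0.07 and the calls to 735 higher and 547 lower genes (57.3% higher, against 50.3%). Among the 21 members named by the rule, for which alone this was computed, no other changed direction with TPM or a pseudocount of 0.1, and PCDHB11 passed the threshold under both.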
